A study of Mus musculus with 2 samples.

Results

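The 6 mouse genes around the making of S-adenosylmethionine (SAM) that were followed were Mat2a, Mat2b, Mettl16, Nudt21, Cpsf6 and Cpsf7. They were chosen by name for what their products do, as the subunits of SAM synthetase, the RNA methyltransferase that binds the Mat2a transcript, and the subunits of cleavage factor I. Earlier results of these data were known when the choice was made. All 6 were found among the 43346 features measured, and 6 of 6 passed the filter on low values. The tested culture was X63/0 (X63-Ag8.653), a mouse plasmacytoma line, given 30 mM cycloleucine for 3 h, and the other was the same line without treatment. Cycloleucine blocks the synthesis of SAM by methionine adenosyltransferase, so the comparison asked how transcripts differ under a drug used to lower SAM. The level of SAM itself is not measured by these data. RNA-seq was done on total RNA after removal of ribosomal RNA, so unspliced nuclear RNA was read together with messenger RNA. The series speaks of a triplicated experiment, and 2 libraries, 1 per group, were analysed here. No difference below therefore has a replicate check, no p-value is given, and intervals are 95% intervals that cover counting error only. The libraries were amplified by PCR and no molecular identifiers are described, so reads are not independent molecules and these intervals may be too narrow. Both cultures are of 1 cell line. Any addition of plain medium to the untreated culture is a point not given in the sources used here.

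SAM is the methyl donor of most cellular methylation, and outside the liver it is made from methionine and ATP by an enzyme whose catalytic subunit is MAT2A and whose regulatory subunit is MAT2B. In human cells part of the MAT2A transcript is kept in the nucleus with its last intron unspliced. METTL16 methylates hairpins in the 3′ untranslated region of that transcript, and when SAM is scarce it stays bound to the hairpin nearest the coding sequence and promotes splicing of the last intron. Work in human cells has tied cleavage factor I, which is built from NUDT21 with CPSF6 or CPSF7 and binds UGUA in pre-mRNA, to the same splicing step.

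Mat2a maps to the minus strand of mm10 chromosome 6, between 72432799 and 72439558. Its deposited gene model had 9 exons with 2804 bases and introns with 3956 bases, and it had the same span as transcript Mat2a-201 of GENCODE M21 (gene ENSMUSG00000053907.10). The last intron, intron 8, covered chr6:72434396-72434980, 585 bases or 14.8% of the intron length, with a GC content of 35.2%. Of 10 annotated Mat2a transcripts, 3 were typed as retained intron and 1, Mat2a-202, held the whole last intron. Read in frame through exon 8, a stop codon began after 1 base of that intron, leaving 362 codons against 395 in the spliced form. The intron edges are given because the retained and spliced forms part there. The lines run 5′ to 3′ on the minus strand, with the conserved intron dinucleotides in capitals, at chr6:72434961-72434990 and chr6:72434386-72434415.
Mat2a last intron, 5′ splice site: tcattgtcagGTaaagatggtaaaacctat
Mat2a last intron, 3′ splice site: tatggacttgtatattccAGggatctggat

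The 3′ untranslated region of Mat2a-201, 1494 bases in exon 9, held 6 matches to the METTL16 motif, written TACAGAGAA or TACAGAAAA in DNA letters. They are shown because these letters form the methylated loop of the known hairpins. The first began at base 40 of the region and the others between bases 824 and 1337. Site 1 lies at chr6:72434235-72434263, site 2 at chr6:72433451-72433479 and site 3 at chr6:72433272-72433300. Site 4 lies at chr6:72433157-72433185, site 5 at chr6:72433046-72433074 and site 6 at chr6:72432938-72432966. All are on the minus strand of GRCm38, the assembly that mm10 names, from GENCODE M21, written 5′ to 3′ with the motif in capitals.
Mat2a site 1: tggcgtaggtTACAGAGAAgccttcaagc
Mat2a site 2: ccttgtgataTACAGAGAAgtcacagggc
Mat2a site 3: ctggtgtagcTACAGAGAAaccagcttcc
Mat2a site 4: atggcgtaagTACAGAGAAgccatcacct
Mat2a site 5: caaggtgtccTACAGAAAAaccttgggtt
Mat2a site 6: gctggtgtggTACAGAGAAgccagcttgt

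Of the 6 matches, 5 had TACAGAGAA and 1 had TACAGAAAA, and the flanks differed from site to site. Neither form was found on the reverse complement of the region or anywhere in the last intron. For comparison, 5516 of 19749 annotated 3′ untranslated regions were at least 1494 bases long, and their first 1494 bases were searched in the same way. At least 1 match was present in 223 of these windows (4.04%) on the sense strand and in 324 (5.87%) on the reverse complement. At least 2 sense matches were present in 6 windows (0.109%), and at least 3 in 1 window, that of Mat2a itself. The 3′ untranslated regions of Mat2b, Mettl16, Nudt21, Cpsf6 and Cpsf7 held 0 matches. TGTA, the core of the cleavage factor I motif, occurred 12 times in the Mat2a region (8.03 per kb) and 8 times on its reverse complement, without overlap with the METTL16 matches. The last intron held 2 on the sense strand (3.42 per kb) and 3 on the reverse complement. The median over the 5516 windows was 4.69 per kb, and 82.7% of windows had fewer per kb than Mat2a. A match is a description of the letters, not evidence of a bound site. The map of Mat2a shows the last intron and these matches along the gene.

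**Figure D1:**
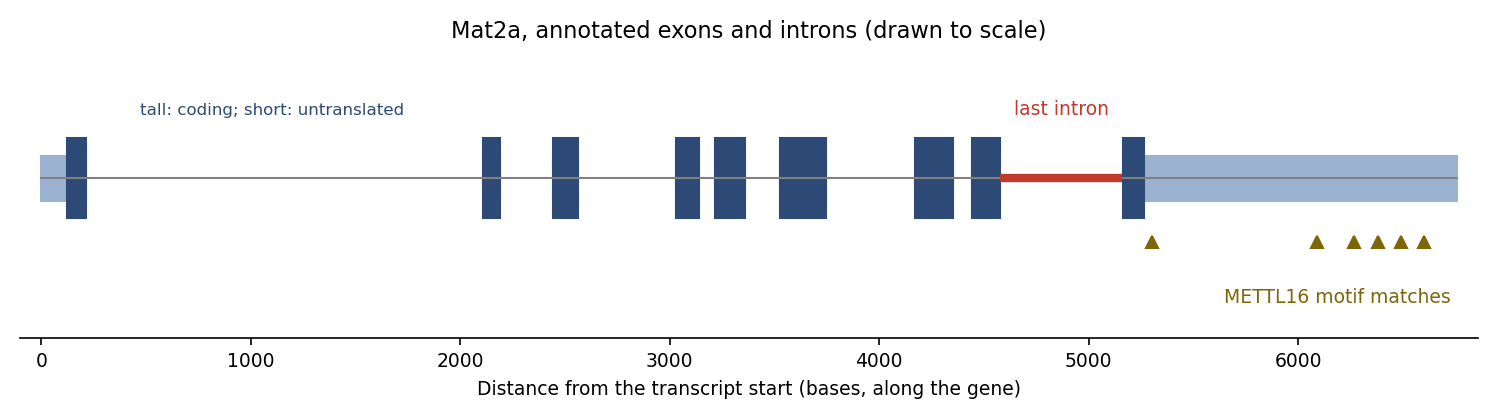
Mat2a from its transcript start (left) to its end, in bases along the gene, with coding exons as tall boxes, untranslated exon parts as short boxes, introns as a line and the last intron, 585 bases, in red. Triangles mark the 6 METTL16 motif matches, 1 near the start of the 3′ untranslated region and 5 in its later part.

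The cycloleucine library held 31951946 reads in genes and the untreated library 27127865. Exon reads were 49.4% of them in the cycloleucine library and 48.4% in the untreated library, and the intron share of a typical gene, the median over 6803 genes, was 17.9% in the cycloleucine library and 17.5% in the untreated library. A count of 0 allows up to 3 reads, which for 1 kb of exon is 0.0939 RPKM in the cycloleucine library and 0.111 RPKM in the untreated library. RPKM is exon reads per kb of exon per 1000000 gene reads, and RPM is reads per 1000000 gene reads. All 7 plasma cell markers examined were measured, with a summed RPKM of 713 in the cycloleucine library and 705 in the untreated library. The 4 B cell markers, 2 of them measured, had a summed RPKM of 55.8 in the cycloleucine library and 53.6 in the untreated library. The 3 T cell markers had 17 exon reads in the cycloleucine library and 8 in the untreated library, the 4 myeloid markers 87 in each, and the 4 fibroblast markers 55 in the cycloleucine library and 39 in the untreated library. Cd3d, a T cell marker, had 0 exon reads in both. In such bulk RNA, fewer cells of a kind and less RNA per cell cannot be told apart.

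Mat2a, the gene of the catalytic subunit, was the most abundant of the 6 and the 1 whose exon level passed 1.5-fold. It had 182 RPKM in the cycloleucine library and 71.2 RPKM in the untreated library. By this level it ranked 240th of 9613 kept features in the cycloleucine library and 507th in the untreated library. The rise was 2.56-fold (2.48 to 2.64), a log2 fold change of 1.35 (1.31 to 1.40). A feature was called when it was at least 2-fold higher or lower, and 1 of the 6 genes was called higher and 0 lower, against 0.728% of all kept features called higher and 0.666% called lower. All 6 genes have an annotated transcript. Among the 9081 kept features with one, 34 were called higher and 40 lower. At 1.5-fold the members called were again 1 higher, Mat2a, and 0 lower, against 3.03% and 2.47% of kept features. The log2 fold changes of the other 5 genes lay between -0.11 and 0.17, inside the range from -0.58 to 0.64 that held the middle 95% of features.

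The rise of Mat2a stood on 16313 exon reads in the cycloleucine library and 5419 in the untreated library, with 78.2% uniquely placed in the cycloleucine library and 76.9% in the untreated library. Exon-exon reads, which mark spliced RNA, numbered 2512 in the cycloleucine library and 847 in the untreated library when uniquely placed. Relative to uniquely placed gene reads they rose by a log2 change of 1.37 (1.25 to 1.48), and 20 of 7811 genes had a larger rise. Junction reads made up 19.7% (19 to 20.4) of unique exon reads in the cycloleucine library and 20.3% (19.1 to 21.6) in the untreated library. Exonic and spliced reads of Mat2a were therefore higher in about the same proportion, with a log2 change of their ratio of -0.04 (-0.15 to 0.06). In the junction comparison 1 member was at least 2-fold higher and 0 were lower, against 1.14% and 0.845% of genes.

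Intron reads of Mat2a were lower in the cycloleucine library. They numbered 387 (12.1 RPM) in the cycloleucine library and 661 (24.4 RPM) in the untreated library. The log2 change was -1.01 (-1.19 to -0.83), and 53 of 9278 genes had a lower one. One member, Mat2a, passed 2-fold lower and 0 passed 2-fold higher, against 0.593% and 0.701% of genes. This call sat at the threshold: scaled by the total of intron reads the value was -0.98, and from uniquely placed reads -0.88, both short of 2-fold. Intron reads made up 2.32% of Mat2a gene reads (2.09 to 2.56) in the cycloleucine library and 10.9% (10.1 to 11.7) in the untreated library. The plot of intron shares shows that both intervals lie far apart.

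**Figure D2:**
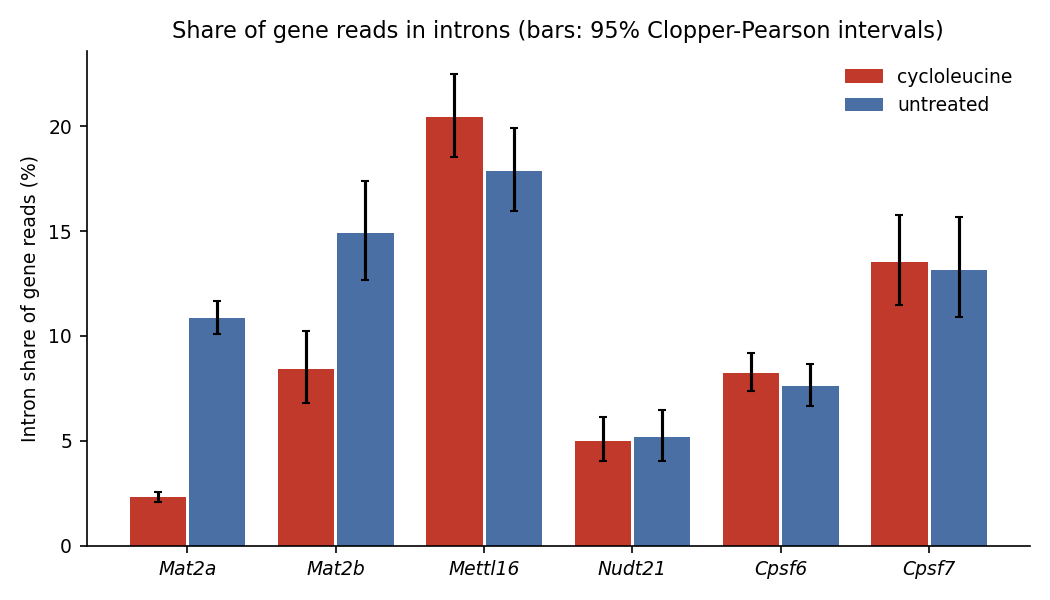
Share of each gene's reads that lay in introns, in percent, for the cycloleucine library (left bar of each pair) and the untreated library (right bar), with 95% Clopper-Pearson counting intervals. Mat2a stood at 2.32% in the cycloleucine library and 10.9% in the untreated library, and Mat2b at 8.40% and 14.9%, while the intervals of each of the other 4 genes overlapped.

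Because exon and intron reads of Mat2a moved apart, its intron to exon ratio fell by 2.36 on the log2 scale (interval of the change -2.55 to -2.17). This was 5.14-fold lower in the cycloleucine library, and 0 of the other genes among the 6803 compared had a lower change. Here 1 member was at least 2-fold lower and 0 were higher, against 0.382% and 0.588% of genes. Read density puts the ratio on a scale per length. In the cycloleucine library Mat2a introns carried 1.68% of the density of its exons, and 22.1% of genes had a lower value. In the untreated library they carried 8.65%, and 84.7% of genes had a lower value. The median gene stood at 3.25% in the cycloleucine library and 3.22% in the untreated library. By density Mat2a was thus above the median gene in the untreated library and below it in the cycloleucine library. By intron share of reads it was below the median gene in both. The share was 2.32% against a median of 17.9% in the cycloleucine library, and 10.9% against 17.5% in the untreated library.

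The deposited table gives 1 intron count per gene, so the place of the intron reads within Mat2a was not measured, and retained introns and nascent RNA cannot be told apart in it. The sizes of both movements can still be set side by side as reads per kb per 1000000 gene reads. Spread over all 3956 intron bases, the intron level was 3.06 in the cycloleucine library and 6.16 in the untreated library. That drop of 3.10 equals 2.79% of the rise in exon level, which was 110.8. If every intron read lay in the last intron, its level would be 20.7 in the cycloleucine library, 11.4% of the exon level, and 41.7 in the untreated library, 58.5% of it. With that placement the drop, 20.9, would equal 18.9% of the rise in exon level. The fall in intron level was thus smaller than the rise in exon level under both placements. Levels do not measure how fast RNA is made, spliced or lost, and the source of the rise was not tested.

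Some Mat2a reads could belong to other loci. The processed pseudogene Gm9523 matched the Mat2a transcript over 1065 bases at 95.2% identity, and it lies inside the noncoding gene 6030443J06Rik on chromosome 5. That gene had 1523 reads (376 uniquely placed) in the cycloleucine library and 1199 (353 uniquely placed) in the untreated library. The antisense transcript Particl overlaps 211 bases of the Mat2a transcript at the 5′ end of the gene. Particl spans chr6:72439051-72440610, so it also covers part of Mat2a intron 1, chr6:72437449-72439345. Because the strand setting is unknown, Particl reads cannot be told apart from Mat2a exon or intron reads in this stretch. How many Mat2a intron reads came from Particl was not tested. From uniquely placed reads alone the log2 fold change of Mat2a was 1.41, and the ratio change was -2.29.

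Mat2b, the gene of the regulatory subunit, showed no such exon change but had fewer intron reads. It maps to the minus strand of chromosome 11, between 40679314 and 40695203, with 18 exons. Its level was 6.14 RPKM (981 exon reads) in the cycloleucine library and 5.76 RPKM (781 exon reads) in the untreated library. The log2 fold change was 0.09 (-0.04 to 0.23). The level of Mat2a relative to Mat2b was 29.7 in the cycloleucine library and 12.4 in the untreated library, and with unique reads 23.3 in the cycloleucine library and 9.57 in the untreated library.

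Mat2b had 90 intron reads (2.82 RPM) in the cycloleucine library and 137 (5.05 RPM) in the untreated library. The log2 change was -0.84 (-1.24 to -0.45), and 100 of 9278 genes had a lower one. Its intron share was 8.40% (6.81 to 10.2) in the cycloleucine library and 14.9% (12.7 to 17.4) in the untreated library. The log2 change of the intron to exon ratio was -0.93 (-1.36 to -0.52), with 39 of 6803 genes lower. From uniquely placed reads it was -1.05, which is past 2-fold. Both SAM synthetase genes were thus at least 1.5-fold lower in intron reads and in the ratio, 2 of 6 members in each case, against 3.54% and 3.51% of genes. In the other direction 0 members passed 1.5-fold, against 4.6% and 5.16% of genes. Junction reads of Mat2b, 255 in the cycloleucine library and 202 in the untreated library, made up 26.0% of unique exon reads in both. Mat1a, the liver form of the catalytic subunit, had 1 exon read in the cycloleucine library and 0 in the untreated library, so it was below the filter.

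**Figure D3:**
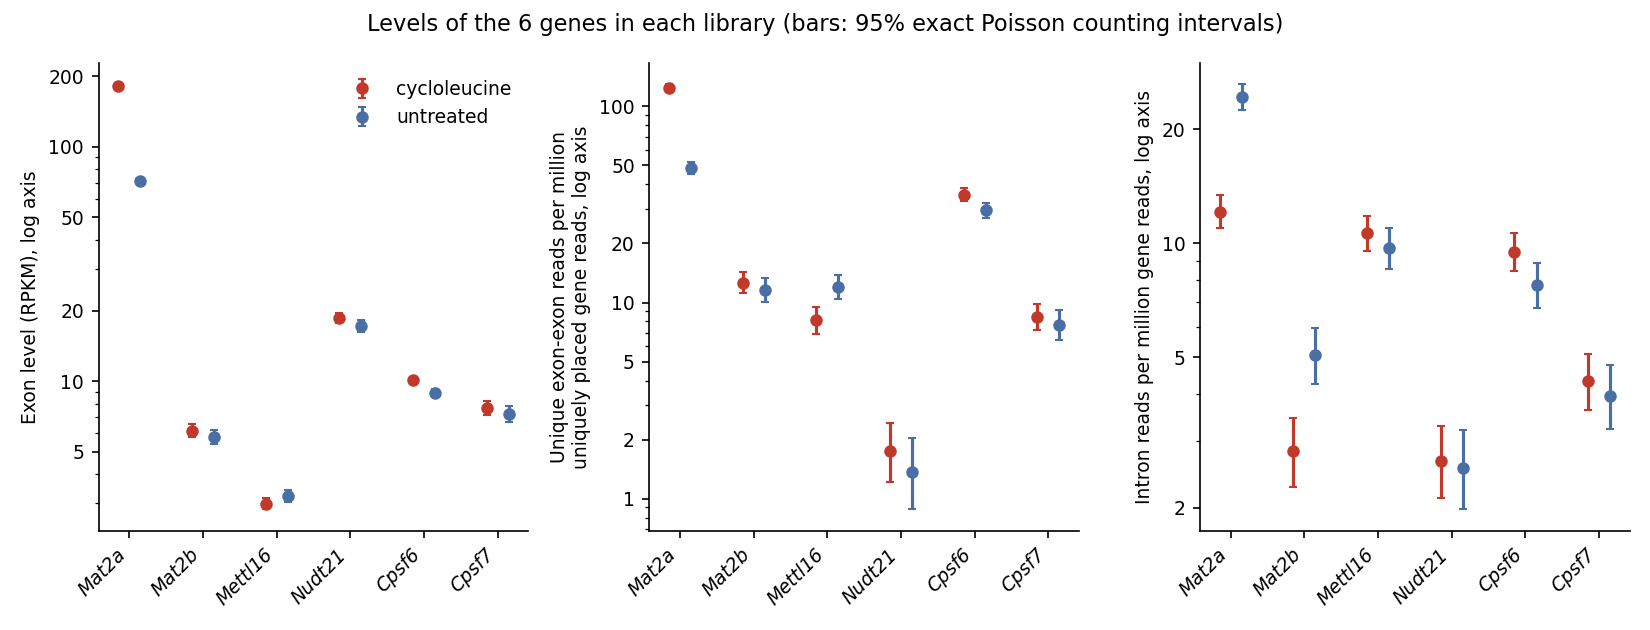
Level of each gene in the cycloleucine library (left point of each pair) and the untreated library (right point) on log axes, as exon RPKM, unique exon-exon reads per 1000000 uniquely placed gene reads, and intron RPM, with 95% exact Poisson intervals. Mat2a was at 182 RPKM in the cycloleucine library and 71.2 in the untreated library, with the order turned round for its intron reads, 12.1 and 24.4 RPM.

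Mettl16, the gene of the methyltransferase that reads the Mat2a hairpins and also modifies U6 snRNA, had the lowest RPKM of the 6. It maps to the plus strand of chromosome 11, between 74770830 and 74828525, with 21 exons that add up to 13817 bases over 6 annotated transcripts. Its level was 2.99 RPKM (1319 exon reads) in the cycloleucine library and 3.23 RPKM (1209 exon reads) in the untreated library. The log2 fold change was -0.11 (-0.22 to 0.0032), short of both thresholds. The exon length joins all annotated transcripts, and the level of single transcripts was not measured.

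Exon-exon reads of Mettl16 were fewer in the cycloleucine library, with 163 there and 210 in the untreated library, although that library was smaller. The log2 change was -0.60 (-0.91 to -0.30), at least 1.5-fold lower, as in 4.48% of genes, and 332 of 7811 genes had a lower one. Mettl16 was the 1 member lower at this threshold, and Mat2a was the 1 member higher, against 4.95% of genes. The call depended on the scaling, since all of these reads were uniquely placed and the value relative to uniquely placed gene reads was -0.57, short of 1.5-fold. Junction reads were 12.4% (10.7 to 14.3) of its unique exon reads in the cycloleucine library and 17.4% (15.3 to 19.7) in the untreated library. The log2 change of the junction to exon ratio was -0.49 (-0.76 to -0.22), with 341 of 7689 genes lower. It was short of 1.5-fold. In this ratio 0 of the 6 members passed 1.5-fold in either direction, against 2.67% of genes higher and 2.78% lower, and 0 passed 2-fold, against 0.494% and 0.455%. Intron reads of Mettl16 numbered 339 in the cycloleucine library and 263 in the untreated library. Its intron share was 20.4% (18.5 to 22.5) in the cycloleucine library and 17.9% (15.9 to 19.9) in the untreated library. These intervals overlapped, and the log2 change of the intron to exon ratio was 0.24 (-0.02 to 0.51). The deposited table counted 4 detected Mettl16 transcripts in the cycloleucine library and 5 in the untreated library.

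**Figure D4:**
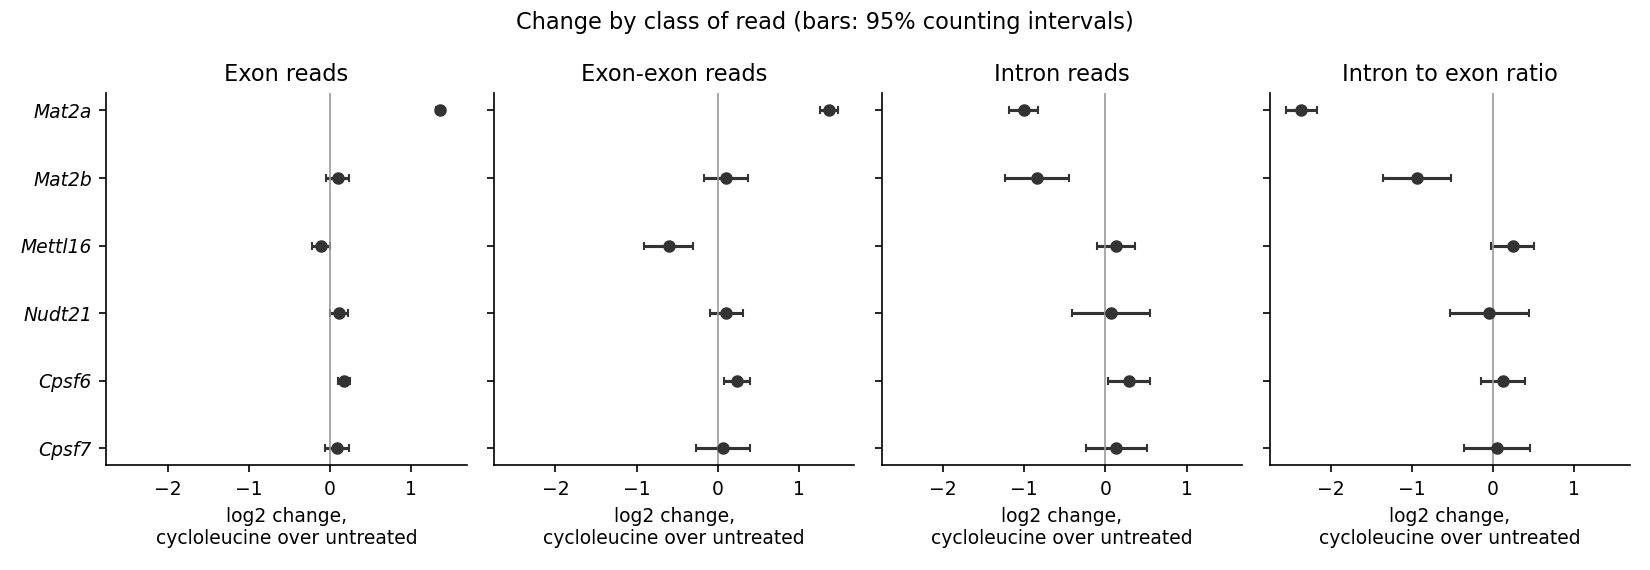
Log2 change of exon reads, exon-exon reads, intron reads and the intron to exon ratio, cycloleucine over untreated, for each of the 6 genes, with 95% counting intervals. Mat2a lies to the right for exon reads (1.35) and exon-exon reads (1.37) and to the left for intron reads (-1.01) and the ratio (-2.36), Mat2b to the left for the last 2 only, and Mettl16 to the left for exon-exon reads (-0.60).

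Of the cleavage factor I genes, none passed 1.5-fold in any class of read. Nudt21 encodes the small subunit, which binds UGUA, and maps to the minus strand of chromosome 8, between 94017770 and 94037021. It had 18.5 RPKM in the cycloleucine library and 17.2 RPKM in the untreated library, with a log2 fold change of 0.11 (0.0047 to 0.22). It had 85 intron reads (5.0% of its gene reads) in the cycloleucine library and 69 (5.16%) in the untreated library, and the intron to exon ratio had a log2 change of -0.05 (-0.54 to 0.45). Its exon reads were poorly separable from copies. Of 1615 exon reads in the cycloleucine library 33.0% were uniquely placed, and of 1269 in the untreated library 33.3%. Of its junction reads, 7.56% of 463 were uniquely placed in the cycloleucine library and 6.58% of 365 in the untreated library. The processed pseudogene Gm7488 matched it over 684 bases at 100% identity and was given 19 reads in the cycloleucine library and 5 in the untreated library.

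Cpsf6 encodes a large subunit that joins NUDT21, and maps to the minus strand of chromosome 10, between 117344673 and 117380015. Its level was 10.1 RPKM (3376 exon reads) in the cycloleucine library and 8.92 RPKM (2543 exon reads) in the untreated library. All 3 classes of read were slightly higher in the cycloleucine library, with intervals above 0 and sizes under 1.5-fold. It had 716 junction and 303 intron reads in the cycloleucine library, against 516 junction and 210 intron reads in the untreated library. The log2 changes were 0.17 (0.10 to 0.24) for the exon level, 0.24 (0.07 to 0.40) for junction reads and 0.29 (0.03 to 0.55) for intron reads. The log2 change of the intron to exon ratio was 0.12 (-0.15 to 0.39).

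Cpsf7 encodes the alternative large subunit, and maps to the plus strand of chromosome 19, between 10525244 and 10547735. Its level was 7.68 RPKM in the cycloleucine library and 7.23 RPKM in the untreated library, a log2 fold change of 0.09 (-0.06 to 0.23). Its intron share was 13.5% (11.5 to 15.8) in the cycloleucine library and 13.1% (10.9 to 15.7) in the untreated library. Tmem216 overlaps Cpsf7 by 13871 bases, and 39.6% of Cpsf7 exon reads in the cycloleucine library and 39.0% in the untreated library were uniquely placed, so part of these reads is of uncertain origin. Tmem216 itself had 136 exon reads in the cycloleucine library and 113 in the untreated library.

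The proportions among the cleavage factor I genes differed little between the libraries, but their order depended on how reads with several placements were counted. By RPKM, Nudt21 stood at 1.84 times Cpsf6 in the cycloleucine library and 1.92 times in the untreated library. It stood at 2.42 times Cpsf7 in the cycloleucine library and 2.37 times in the untreated library. Cpsf6 stood at 1.31 times Cpsf7 in the cycloleucine library and 1.23 times in the untreated library. The large subunits summed to 17.7 RPKM in the cycloleucine library and 16.2 RPKM in the untreated library. With uniquely placed exon reads per kb, an alternative chosen after seeing the data, Nudt21 stood at 0.612 times Cpsf6 in the cycloleucine library and 0.642 times in the untreated library, so the direction turned round. Unique reads were divided by the full exon length, which lowers genes with few uniquely placed reads. In the cycloleucine library 33.0% of Nudt21 and 39.6% of Cpsf7 exon reads were unique, against 99.5% for Cpsf6. The unique order is therefore not a ranking of true levels. Cpsf6 then stood at 3.29 times Cpsf7 in the cycloleucine library and 3.15 times in the untreated library. In descending order of RPKM the 6 genes were Mat2a, Nudt21, Cpsf6, Cpsf7, Mat2b and Mettl16 in both libraries, with counting intervals of neighbours that did not overlap. With unique reads Mat2a stayed first in both libraries, while Cpsf6 stood above Nudt21 and Mat2b above Cpsf7. Mettl16 then stood above Cpsf7 in the untreated library, at 4.99 against 4.38 unique exon reads per kb per 1000000. In the cycloleucine library these 2 genes were near level, at 4.73 for Mettl16 and 4.83 for Cpsf7, the latter from 350 unique exon reads. No intervals were computed for these unique levels, so close places are not resolved. Mat2b and Nudt21 were level, both at 9.72 in the cycloleucine library, and at 8.88 and 8.87 in the untreated library. The places of Nudt21 and Cpsf7 thus rest on reads of several placements.

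The genes whose exon and intron changes together came nearest to those of Mat2a were Arvcf, Amotl1, Slc25a36, D3Ertd751e and Socs6, at distances of 0.74 to 0.86 in log2 units, over 6803 genes and 2 libraries. The nearest, Arvcf, a gene of the catenin family, had 223 exon and 191 intron reads in the cycloleucine library, against 104 exon and 222 intron reads in the untreated library. It had log2 changes of 0.86 for exon reads and -0.45 for intron reads. Slc25a36, which encodes a mitochondrial carrier of pyrimidine nucleotides, had 617 exon and 71 intron reads in the cycloleucine library, against 343 exon and 99 intron reads in the untreated library. It was the 1 gene besides Mat2a with exon reads at least 1.5-fold higher and intron reads at least 1.5-fold lower, with log2 changes of 0.61 and -0.71. Exon reads were at least 2-fold higher in 5 of these genes and intron reads at least 2-fold lower in 18, with Mat2a the 1 gene in both sets. Each of the 5 genes nearest to Mat2a had far fewer exon reads than Mat2a, at most 617 in either library.

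**Figure D5:**
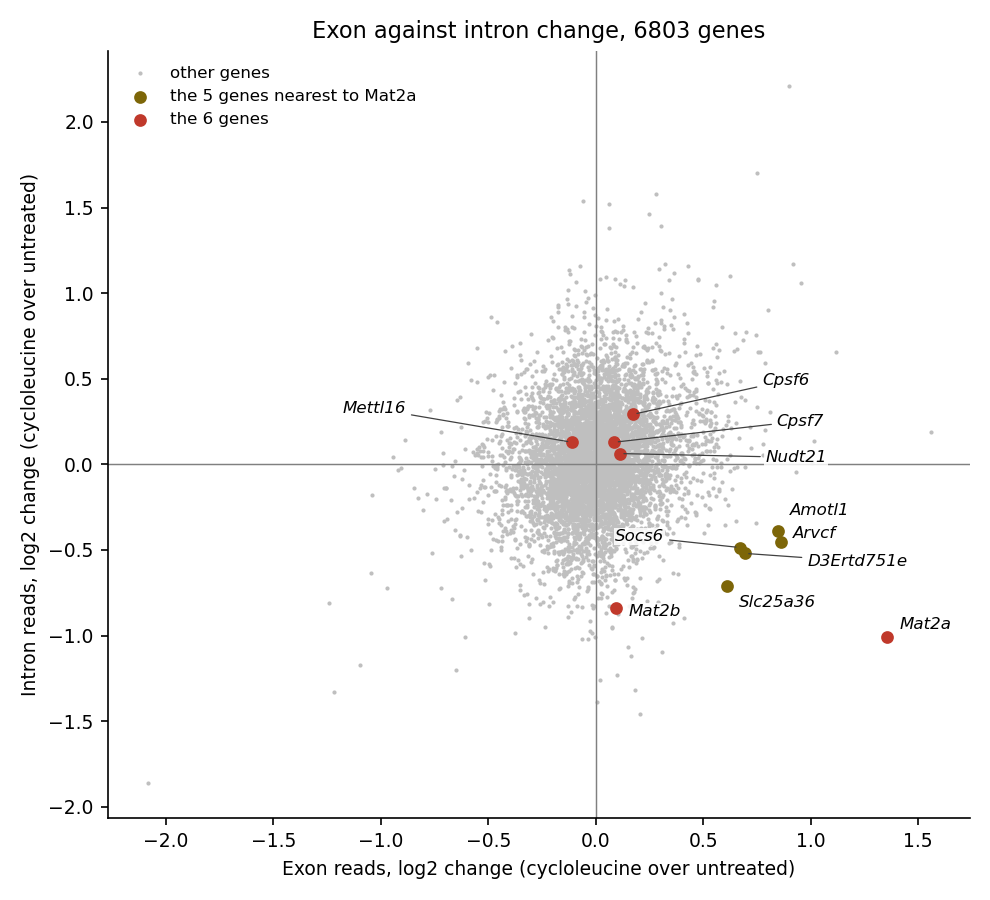
Log2 change of intron reads (vertical) against log2 change of exon reads (horizontal), cycloleucine over untreated, for 6803 genes (grey), with the 6 genes in red and the 5 genes nearest to Mat2a in brown. Mat2a lies alone at the lower right, at 1.35 and -1.01, while Mat2b lies below the cloud at an exon change near 0.

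Genes that act beside cleavage factor I in 3′ end formation were near the background. Of 17 listed cleavage and polyadenylation genes 16 were kept, 0 were at least 1.5-fold higher and 0 lower, a count near the 3.03% and 2.47% of all kept features. The median log2 fold change was 0.04, against 0.0035 over all kept features. Above 0 lay 11 and below 0 lay 5, against 4890 and 4723 of all kept features. Rbbp6, a component of the 3′ end machinery, was at 12.1 RPKM in the cycloleucine library and 8.34 RPKM in the untreated library, a log2 fold change of 0.53 (0.45 to 0.61). Pabpn1, the nuclear poly(A) binding protein gene, was at 13.9 RPKM in the cycloleucine library and 19.6 RPKM in the untreated library, at -0.50 (-0.60 to -0.39), but 12.1% of its reads in the cycloleucine library and 9.91% in the untreated library were uniquely placed, and these gave -0.18. Clp1 was at 0.39, Papolg at 0.36, Pcf11 at 0.19 and Cpsf1 at 0.04. The intron to exon ratio was compared in 14 of these genes, and 0 of them were at least 1.5-fold lower, near the 3.51% of all genes compared.

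U6 snRNA, the other substrate of METTL16, was listed at 0 reads for Rnu6 in both libraries, so its level was not measured. Of 18 listed genes for U6 maturation and the U6 snRNP all 18 were kept, with 0 at least 1.5-fold higher and 0 lower, near the 3.03% and 2.47% of all kept features. The median log2 fold change was -0.0087. Mepce, which encodes the capping enzyme of 7SK RNA, was the highest, at 13.4 RPKM in the cycloleucine library and 9.56 RPKM in the untreated library, a log2 fold change of 0.48 (0.36 to 0.61). Sart3, a U6 snRNP recycling factor gene, was the lowest, at 9.77 RPKM in the cycloleucine library and 11.6 RPKM in the untreated library, a log2 fold change of -0.25 (-0.37 to -0.13). Lsm3, of the ring bound to U6, was at 0.22. Lsm7 was at -0.17, with 5.29% of its reads uniquely placed in the cycloleucine library and 6.19% in the untreated library. These unique reads gave -0.35 for Lsm7, lower than the -0.22 that unique reads gave for Sart3.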

How the data were processed

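The deposited table held counts of reads per gene, total and uniquely placed, over exons, exon-exon junctions and introns, and RPKM values, which the authors computed per kb of exon and per 1000000 gene reads, per the file headers. A deposited fold column held the authors' signed ratio of the RPKM values. The deposited counts of detected and annotated transcripts, other values per gene, were used as given. Coordinates are of mm10, the build named in the submitters' processing notes. Aligner, counter, annotation release and strand setting were not given in the sources used here. RPKM recomputed from reads returned the deposited value in 43346 of 43346 features of both libraries, within a share of 0.0001, and the table had 0 columns of other libraries. In the cycloleucine library the cell for all exon-exon reads of Mat2a was not a number, so uniquely placed reads were used for that gene. Start positions count from 0 in the table and are printed from 1.

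Log2 fold changes used RPKM plus 0.1. A feature was kept if 1 or both libraries had an RPKM of 1 or more and its reads summed to 50 or more, which left 9613 features, 9081 with an annotated transcript. Summed over the libraries, 100 or more reads were needed to compare intron reads, 50 or more for junction reads, and 100 intron and 200 exon reads for ratios, 0.5 being added to each count in a ratio. With 1 library per group no test was run, and size rules of 2-fold and 1.5-fold were used. Intervals are Clopper-Pearson, exact Poisson, conditional exact (intron to exon ratio) or, for the junction to exon ratio, a normal approximation from its 4 counts. Copies were sought with BLASTN 2.17.0 in GENCODE M21 transcripts, at no less than 95% identity over 100 bases. Python 3.11.15, SciPy 1.17.1 and edgeR 4.0.16 (scaling factors only) were used. The 2-fold rule and the Clopper-Pearson interval for exon reads, and the direction of the intron to exon ratio, were tried on simulated Poisson counts. Such counts hold counting error only, so they cannot show whether the intervals are wide enough for these libraries. The other kinds of interval and the 1.5-fold rule were not tried on them.

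Named were the 6 genes, the 5 genes nearest to Mat2a in exon and intron change, overlapping genes, and of each list the highest, the lowest, up to 2 next largest and a few set genes. The genes, lists and rules were chosen with earlier results of these data known. The result of 1 marker gene is not reported here.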

Additional observations from a re-analysis of the deposited data

How the results depend on the processing

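No paired analysis was possible because there was 1 library per group. Of 118 member values under alternatives, 111 moved by less than their counting interval. With uniquely placed reads the Mat2a log2 fold change was 1.41, the Nudt21 junction change 0.34 and its junction to exon change 0.20, and the intron share was 13.5% for Nudt21 in the cycloleucine library and 13.1% in the untreated library, and in the untreated library 6.65% for Cpsf6 and 16.1% for Cpsf7. Level ratios from unique reads, added after seeing the data, turned round for Nudt21 over Cpsf6 (0.612 in the cycloleucine library, 0.642 in the untreated library) and Cpsf7 over Mat2b (0.497 and 0.493). By construction these use fewer reads over the full exon length, which lowers genes with few uniquely placed reads. Near-zero values changed sign in the junction to exon ratio of Mat2b and Nudt21 and in the intron to exon ratio of Nudt21 and Cpsf7. The list counts were unchanged under all 20 alternatives. They were 0 apart from 1 higher in the SAM synthetase list, Mat2a, so this says little about their stability. The numbers past 2-fold by RPKM, 70 higher and 64 lower, were 35 and 26 with a pseudocount of 1, 1181 and 1214 with no filter, 33 and 22 from an RPKM of 5, 26 and 19 from 200 exon reads, 34 and 40 with annotated features, 42 and 22 with unique reads, and 291 and 237 at 1.5-fold. For the intron to exon ratio, 40 and 26 became 114 and 74 from 50 intron and 100 exon reads, 2 and 7 from 400 of each, and 351 and 239 at 1.5-fold. Junction reads gave 89 and 66, or 7 and 4 from 200 reads. Intron reads gave 65 and 55, or 15 and 14 from 400 reads, and 25 lower with unique reads. Fewer genes enter under stricter filters, and the cause of the other differences was not tested. Scaling by exon totals, TMM or the median shifted log2 values by 0.03 or less. Depth limits the intron counts of Mat2b, Nudt21 and Cpsf7, between 69 and 138 reads per library.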

Other observations

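Factors of nuclear RNA decay and splicing regulators, which act on retained introns elsewhere, were looked at by list. Of 19 nuclear RNA decay genes all 19 were kept, with 0 at least 1.5-fold higher and 0 lower, near the 3.03% and 2.47% of all kept features. The median log2 fold change was -0.02. Exosc8, an exosome subunit gene, was the highest, with 7.52 RPKM in the cycloleucine library and 6.01 RPKM in the untreated library, at 0.32 (0.17 to 0.46). Zcchc7, of the TRAMP complex, was the lowest, with 0.834 RPKM in the cycloleucine library and 1.20 RPKM in the untreated library, at -0.48 (-0.70 to -0.26). Its intron to exon ratio was at 0.60, the 1 ratio of 16 in this list past 1.5-fold, and it was higher, near the 5.16% of all genes compared. Exosc10, the nuclear exonuclease gene, was at 0.02.

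A list of 15 genes known for retained introns or poison exons held SR protein and CLK kinase genes and Ogt. All 15 were kept, with 0 at least 1.5-fold higher and 0 lower, again near 3.03% and 2.47% of all kept features. The median log2 fold change was -0.06. Srsf7 was the highest, with 59.0 RPKM in the cycloleucine library and 53.6 RPKM in the untreated library, at 0.14 (0.07 to 0.20). Tra2a was the lowest, with 16.8 RPKM in the cycloleucine library and 20.4 RPKM in the untreated library, at -0.28 (-0.41 to -0.15). Clk1, the kinase gene known for a detained intron pair, was at -0.02 and Clk4 at -0.06, and Ogt, which also has a known detained intron, at -0.15. The intron to exon ratio was compared in 12 of these genes, and 0 passed 1.5-fold in either direction, near the 5.16% higher and 3.51% lower of all genes. The median log2 change of the ratio was -0.06.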
